A study of Homo sapiens with 8 samples.

Results

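MIR18A, MIR19A and MIR20A are 3 of the 6 microRNA genes of the miR-17-92 cluster, and their signals were followed in K562 cells through erythroid induction. They were taken as every row of the value table whose gene symbol is MIR18A, MIR19A or MIR20A. This gave 9 of 621 rows, or 3 of 207 features of 3 consecutive spots each. K562 is an established human myeloid leukaemia line that can be pushed towards the red cell lineage. The groups were uninduced cells on day 0 and induced cells in serum-free StemLineII medium with EPO at 7.5 U/ml and IL3 at 50 ng/ml, taken at intervals of 2 days from day 2 to day 10 and again on days 15 and 22. The labels give IMDM with fetal calf serum for maintenance and an adaptation to the serum-free medium before induction, so medium and induction may both separate day 0 from later days. Each time point had 1 Cy3 array, with no replicate, and the labels do not say whether the arrays came from separate cultures. P-values therefore measure only the scatter between arrays. The day 15 column equalled the mean of days 10 and 22 within 0.006 units in all 621 rows and was left out, which leaves 7 arrays.

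The miR-17-92 cluster is transcribed as part of a single primary transcript, from the host gene MIR17HG, and is cut into separate hairpins and then into mature microRNAs. It is a classic target of the growth regulator MYC and is known for promoting proliferation and survival in blood cells and in lymphoma. A microRNA recognises its targets mainly through its seed, bases 2 to 8 from the 5′ end. Members of 1 cluster can thus be made together and still act on different sets of messenger RNAs.

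The 6 hairpins span 787 bases of the plus strand of chromosome 13 in the RefSeq annotation of GRCh38.p14, and all 6 lie within MIR17HG. The hairpin of MIR18A is at chr13:91350751-91350821, that of MIR19A at chr13:91350891-91350972 and that of MIR20A at chr13:91351065-91351135. Only 69 bases separate the hairpins of MIR18A and MIR19A, and 92 those of MIR19A and MIR20A. The hairpins are printed because a gene symbol on the array does not say which arm of the hairpin the probe reads, and capitals mark both mature arms:
MIR18A hairpin: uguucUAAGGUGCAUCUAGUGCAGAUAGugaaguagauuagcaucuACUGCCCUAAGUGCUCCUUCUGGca
MIR19A hairpin: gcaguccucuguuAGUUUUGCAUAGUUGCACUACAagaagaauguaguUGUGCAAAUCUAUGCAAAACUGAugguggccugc
MIR20A hairpin: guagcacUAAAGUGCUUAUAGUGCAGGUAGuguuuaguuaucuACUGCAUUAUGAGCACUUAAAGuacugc

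The mature arms fall into separate seed families, and the main arms are shown with the seed in capitals, beside 3 cluster arms and 2 relatives from elsewhere in the genome that bear on how the members compare:
hsa-miR-20a-5p: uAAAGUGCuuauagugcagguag
hsa-miR-17-5p: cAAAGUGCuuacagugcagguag
hsa-miR-93-5p: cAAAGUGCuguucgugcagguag
hsa-miR-18a-5p: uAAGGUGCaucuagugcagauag
hsa-miR-19a-3p: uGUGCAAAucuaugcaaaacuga
hsa-miR-19b-3p: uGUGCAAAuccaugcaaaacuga
hsa-miR-92a-3p: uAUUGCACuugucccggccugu
hsa-miR-25-3p: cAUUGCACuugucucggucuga

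Each of the 3 measured members has a seed of its own. The seed of miR-20a-5p is shared with miR-17-5p and, among named features, with miR-93-5p, a product of MIR93. The miR-92a-3p seed is carried by the named features MIR25, MIR32 and MIR367, although MIR92A1 itself was not analysed here, nor were MIR17 and MIR19B1. The seed of miR-18a-5p differs from that of miR-20a-5p by A4G alone, counted from the 5′ end of miR-20a-5p. Over all 23 bases these arms differ by A4G, U9A, A11C and G20A. Close relatives outside the seed also differ little. miR-20a-5p and miR-17-5p differ by U1C and U12C, miR-19a-3p and miR-19b-3p by U11C alone, and miR-18a-5p and miR-18b-5p by A20U alone. Probe sequences were not used here, so the part of such relatives in each signal was not tested.

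Intensities are given in units above the dimmest spot of the same array, with the SD of the 3 spots, because the deposited values are centred on each array's mean. Arrays differed in overall brightness: the range from dimmest to brightest spot was 15443 units for day 0, 554 for day 22 and between these for the other days, and the median feature ranged from 46.3 units on day 8 to 326 on day 4. Microarray probes differ in affinity, so levels of different members do not rank their abundance. MIR429, MIR375, MIR367, MIR371A, MIR372 and MIR373, which mark epithelial, islet and embryonic cells, show the signal of features not expected in K562. Of the fixed red cell and other blood markers, MIR22, MIR96, MIR21 and MIR342 were measured by name, and only MIR21, at a mean log2 level of 10.71, and MIR96, at 7.16, lay above the highest foreign-tissue marker mean of 7.11. The labelled identity is thus only weakly checked by these arrays. The extraction protocol also names CD34 cells, whereas the other labels name K562.

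MIR20A, a known repressor of the cell cycle factor E2F1, was the brightest of all 207 features on days 0 and 6 and fell to the 19th place on day 22. On days 0, 2, 4 and 6 its mean intensity was 12423 ± 3699, 2258 ± 213, 4469 ± 29.3 and 3923 ± 75.4 units (SD, n = 3 spots). On days 8, 10 and 22 it was 1804 ± 137, 1449 ± 101 and 136 ± 5.86 units. Day 0 was the highest array and also the one where the spots spread most, at 8298, 13529 and 15443 units for spots 1, 2 and 3. MIR20A held 20.1% of the summed signal of all features on day 0, between 2.98% and 7.66% on days 2 to 10, and 0.816% on day 22. Against the highest foreign-tissue marker of the same array it was 84.3 times brighter on day 0, 7.20 to 38.9 times on days 2 to 10 and 1.56 times on day 22. MIR20A was thus above all 6 of these markers on every array, with the smallest margin on the last.

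MIR18A, known to repress the connective tissue growth factor gene, kept its place until day 10 and was in the marker range on day 22. On days 0, 2, 4 and 6 its intensity was 1119 ± 492, 1168 ± 156, 2235 ± 121 and 960 ± 52.4 units (SD, n = 3 spots). It was 709 ± 17.6, 447 ± 28.0 and 70.3 ± 4.51 units on days 8, 10 and 22. Its rank among 207 features lay between 8 and 11 on the first 6 arrays and was 88 on day 22. The share of summed signal was 1.54% to 2.56% up to day 10 and 0.423% on day 22. Relative to the highest foreign-tissue marker MIR18A was 3.72 to 15.3 times brighter up to day 10, and on day 22 the ratio was 0.808. MIR18A is therefore not shown to be expressed on day 22.

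MIR19A, a member known for its part in the tumour-promoting activity of the cluster, fell out of the 11 highest ranks on day 8. MIR18A and MIR20A did so on day 22. In units MIR20A had fallen earlier, from 12423 on day 0 to 2258 on day 2. For days 0, 2, 4 and 6 the MIR19A intensities were 1159.7 ± 383, 1283 ± 282, 2303 ± 53.7 and 850.3 ± 87.9 units (SD, n = 3 spots). Those of days 8, 10 and 22 were 157 ± 24.6, 162 ± 29.1 and 65.3 ± 5.03 units. All 4 arrays up to day 6 lay above all 3 later ones, as in 136 of 207 features (65.7%) on the log2 scale without normalization between arrays. For MIR19A the gap between days 6 and 8 exceeded the spread of the spots on either. Its rank was 7 to 11 on days 0 to 6, then 30.5 and 33 on days 8 and 10 and 98.5 on day 22. Its ratios to the highest foreign-tissue marker were 4.09 to 8.96 up to day 6, and 3.40, 2.85 and 0.751 for days 8, 10 and 22. MIR19A was therefore still above those markers after the drop on day 8, and inside their range on day 22.

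**Figure D1:**
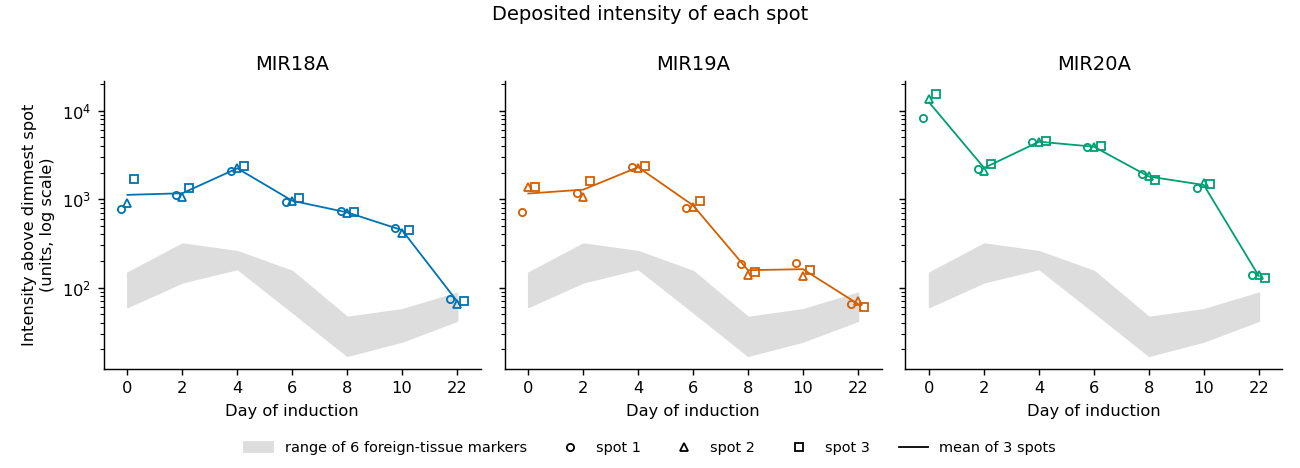
Deposited Cy3 intensity above the dimmest spot of each array (log scale) against day of induction for MIR18A, MIR19A and MIR20A, with the 3 spots as symbols, their mean as a line and the range of the 6 foreign-tissue markers as a grey band. MIR19A drops from 850.3 units on day 6 to 157 on day 8 while MIR18A goes from 960 to 709, and on day 22 both lie in the band.

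**Figure D2:**
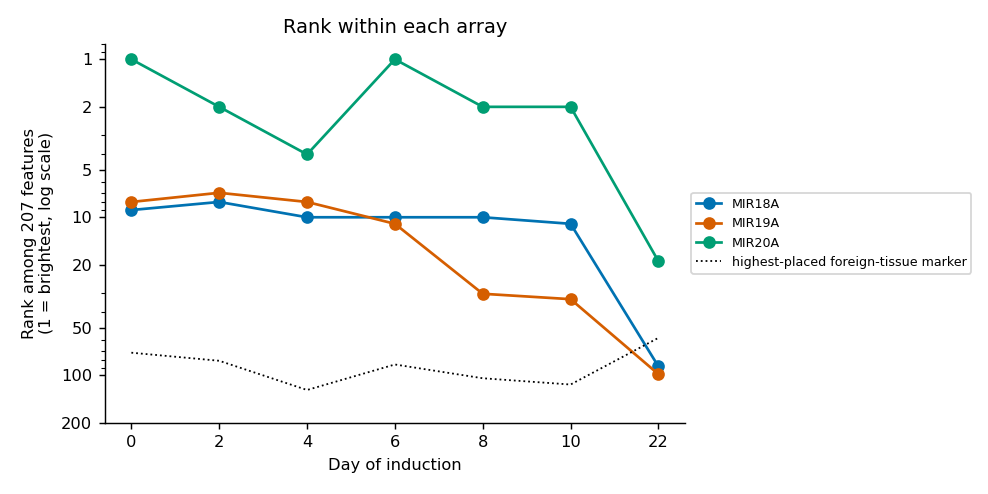
Rank of each member among the 207 features of the same array (1 is brightest, log scale) against day of induction, with the highest-placed foreign-tissue marker dotted. MIR20A holds ranks 1 to 4 up to day 10, MIR18A 8 to 11, and MIR19A leaves that range on day 8.

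To compare arrays, intensities were background-corrected, put on a log2 scale and quantile normalized, which gives every array the same distribution of values. On this scale MIR18A lay at 9.75, 9.78, 9.68, 9.57, 9.63 and 9.54 on days 0 to 10 and at 7.27 on day 22. MIR19A lay at 9.73, 9.98, 9.77 and 9.47 on days 0 to 6, at 8.11 and 8.06 on days 8 and 10 and at 7.14 on day 22. MIR20A lay at 11.66, 11.03, 10.63, 11.49, 11.13 and 11.09 on days 0 to 10 and at 8.65 on day 22. On this scale MIR18A was level over 6 arrays, MIR19A was level over 4, and MIR20A varied by about 1 log2 unit without a steady direction before day 22. Quantile normalization limits how far the brightest feature of an array can stand above the rest. Without normalization between arrays, MIR20A minus its day 0 level was -2.44, -1.44, -1.61, -2.71 and -3.02 on days 2, 4, 6, 8 and 10.

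On the quantile-normalized scale the members differed in which interval held their main loss. Between days 6 and 8 the log2 level changed by -1.36 for MIR19A, -0.37 for MIR20A and 0.06 for MIR18A. A fall of at least 1 log2 unit in that interval was seen in 6 of 207 features (2.90%), MIR19A among them, and 3 (1.45%) rose by as much. Between days 10 and 22 the change was -2.43 for MIR20A, -2.27 for MIR18A and -0.92 for MIR19A. In that longer interval 27 features (13.0%) fell by at least 1, including MIR18A and MIR20A, and 17 features (8.21%) rose by as much. Every feature at or above the MIR18A level on day 10 fell by at least 1, so this loss was not particular to the members. MIR21, the brightest on day 10, went from 11.66 to 8.38. Each of these changes compares 1 array with 1 other and has no replicate behind it. Without normalization between arrays the order within these intervals was the same: between days 6 and 8 the changes were -2.11 for MIR19A, -1.10 for MIR20A and -0.38 for MIR18A, against a median of -0.47 over all features. Between days 10 and 22 they were -3.32 for MIR20A, -2.53 for MIR18A and -1.31 for MIR19A, against a median of -0.16. On that scale MIR20A also had a large loss between days 0 and 2, at -2.44 against a median of 0.54. MIR18A and MIR19A changed by 0.06 and 0.12 in that first interval.

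**Figure D3:**
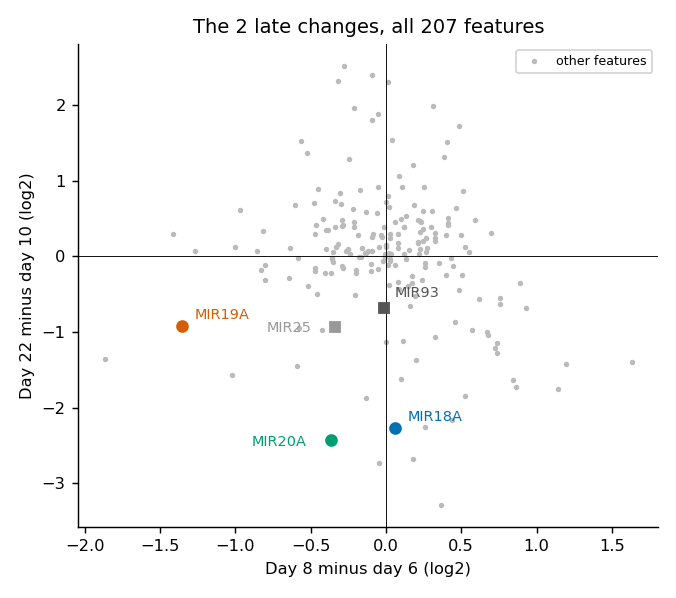
Change in quantile-normalized log2 level from day 10 to day 22 (vertical) against that from day 6 to day 8 (horizontal) for all 207 features, with the 3 members as coloured circles and the paralogs MIR25 and MIR93 as squares. MIR19A lies far to the left at -1.36, whereas MIR18A and MIR20A lie low, at -2.27 and -2.43.

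MIR18A and MIR19A, whose hairpins lie next to each other, gave nearly equal signals up to day 6 and then separated. The ratio of their intensities above the dimmest spot, MIR18A over MIR19A, was 0.965, 0.910, 0.970 and 1.13 on days 0, 2, 4 and 6. It was 4.51, 2.76 and 1.08 on days 8, 10 and 22, and on the last day both signals were in the marker range. A factor shared by an array cancels in plain log2 differences within it, but an offset or quantile normalization can change them. On the normalized log2 scale MIR18A minus MIR19A was -0.04 ± 0.13 over days 0 to 6 (SD, n = 4 arrays) and 1.04 ± 0.79 over days 8 to 22 (SD, n = 3 arrays). MIR18A minus MIR20A was -1.51 ± 0.49 and -1.48 ± 0.08 over the same sets, so these means differed by less than their SD. MIR19A minus MIR20A went from -1.47 ± 0.59 to -2.52 ± 0.87.

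A straight trend in these differences was not detectable among the members. Over the order of the time points the fitted change was 1.0 for MIR18A minus MIR19A (adjusted p = 0.368), 0.11 for MIR18A minus MIR20A (adjusted p = 0.814) and -0.89 for MIR19A minus MIR20A (adjusted p = 0.484). These are exact two-sided permutation tests over 5040 orderings of 7 arrays, adjusted by Benjamini-Hochberg over 9 pairs, and a p above the threshold does not show that members move alike. A line describes the MIR18A and MIR19A pair poorly, since their difference was near 0 at both ends of the course. Without day 22 the fitted change was 2.71 for MIR18A minus MIR19A and -2.65 for MIR19A minus MIR20A (exact permutation, adjusted p = 0.200 and 0.219). Slopes are scaled to the 7 steps from day 0 to day 22, also where arrays are left out. The largest observed log2 difference of MIR18A minus MIR19A was 1.52, on day 8. In the settings without quantile normalization MIR18A minus MIR20A was 1.43 (exact permutation, adjusted p = 0.292) and MIR19A minus MIR20A turned to 0.45, so the size of these differences depended on the scale.

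Tested across all 207 features, MIR19A fell over the time course while the fitted changes of MIR18A and MIR20A were negative but missed the threshold. The limma trend test with Benjamini-Hochberg adjustment gave MIR19A a fitted log2 change from first to last time point of -3.02 ± 0.45 (SE, 7 arrays, adjusted p = 0.0225). It gave MIR18A -2.01 ± 0.63 and MIR20A -2.12 ± 0.73 (SE, adjusted p = 0.277 for each by limma), and the median over all features was 0.03. MIR19A was the only feature called lower (1 of 207, 0.483%), and 0 were called higher, while 12 (5.80%) and 10 (4.83%) reached an unadjusted limma p under 0.05 on the lower and higher sides. All 3 members are among those 12. Without day 22 the fitted changes of MIR18A and MIR20A shrank to -0.34 and -0.40 while that of MIR19A was -3.05, no longer called (limma adjusted p = 0.165). These slopes are still scaled to 7 steps and so reach beyond day 10, where the observed MIR19A level minus day 0 was -1.67. The fitted change of MIR20A also moved with the scaling, to -3.38 at the 75th percentile and -3.59 with median centring (limma adjusted p = 0.306 and 0.228). The MIR19A call was also lost without day 2, 4 or 10, with adjusted p of 0.112, 0.0706 and 0.0564 by limma. On a scale of days rather than order, where day 22 weighs more, limma called MIR18A and MIR20A as well, at -2.52 ± 0.44 and -2.66 ± 0.55 (SE, adjusted p = 0.0158 and 0.0291), among 6 features lower (2.90%) and 4 higher (1.93%).

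Days 8, 10 and 22 were also compared with days 0, 2, 4 and 6 as means. The split was chosen with earlier results of these data known and falls where MIR19A dropped. Adjustment over features does not cover that choice. MIR19A averaged 9.74 ± 0.21 on the 4 early arrays and 7.77 ± 0.55 on the 3 late ones (SD), a difference of -1.96 ± 0.27 (SE, limma adjusted p = 0.0132). It was the only feature called in this contrast (1 of 207, 0.483% lower, and 0 higher by limma), with 10 lower (4.83%) and 9 higher (4.35%) at an unadjusted limma p under 0.05. In 13 of 207 features (6.28%) all late arrays lay below all early ones, and of the members only MIR19A did so, with a gap of 1.36 log2 units. MIR18A differed by -0.88 ± 0.52 and MIR20A by -0.92 ± 0.58 (SE, limma adjusted p = 0.681 for each), and their late arrays overlapped the early ones. Without day 22 these differences were -0.12 and -0.13. For MIR20A the difference was -1.39 with 75th percentile scaling and -1.53 with median centring (limma adjusted p = 0.283 and 0.319). The MIR19A call was lost without day 2, 4 or 6 (limma adjusted p = 0.0681, 0.0973 and 0.0593), with differences of -1.95, -1.90 and -2.0.

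The spots of 1 feature also differed between early and late arrays, though not in the same way for every feature. The third spot of MIR19A was 1.02 to 1.91 times as bright as the first on days 0 to 6 and 0.805 to 0.909 times on days 8 to 22. For MIR18A the ranges were 1.11 to 2.17 and 0.933 to 0.979. Neither pair of ranges overlapped, and those of MIR25 did not either. These ratios were taken only for the members, MIR25 and MIR93, so the share over all features is not known. For MIR20A they were 1.01 to 1.86 and 0.859 to 1.11, and day 10 lay above days 4 and 6. MIR25 went from 1.06 to 1.63 down to 0.978 to 1.03. In MIR93 the ratio was 0.592 on day 0, 1.22 to 1.72 on days 2 to 6 and 1.07 to 1.14 later, so its day 0 array stood on the other side. Time and this division of the arrays cannot be told apart for the drop between days 6 and 8. With a term for days 8 to 22 the limma trend of MIR19A was -1.52 ± 0.65 (SE, adjusted p = 0.584). Fitted to the 4 arrays up to day 6 alone it was -0.70 ± 1.12, and to the 3 later arrays alone -2.40 ± 0.60 (SE, limma adjusted p = 0.967 and 0.124). Both are slopes scaled to the 7 steps from day 0 to day 22, more than either set of arrays covers. The observed log2 level went from 9.73 on day 0 to 9.47 on day 6, and from 8.11 on day 8 to 7.14 on day 22.

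Ranks within an array do not depend on its zero or its scale. Over the order of the time points the fitted change in rank was 83.6 places down for MIR19A (exact permutation p = 0.000794, adjusted p = 0.164), 62.3 for MIR18A (exact permutation p = 0.00476, adjusted p = 0.246) and 13.4 for MIR20A (exact permutation p = 0.0643, adjusted p = 0.486). Adjustment was over all 207 features, of which 0 passed in either direction. At an unadjusted exact permutation p under 0.05, 11 features (5.31%) moved down in order and 7 (3.38%) up. Without day 22 the fitted changes, scaled to 7 steps, were 39.7, 3.20 and 0.400 places for MIR19A, MIR18A and MIR20A.

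The paralogous genes MIR25 and MIR93, which lie with MIR106B in an intron of the replication gene MCM7 on chromosome 7, had smaller fitted changes than the members. Of 15 genes in the cluster and its paralogs 5 were measured by name, of which 1, the member MIR19A, passed as lower and 0 as higher in the limma trend test, beside 1 (0.483%) and 0 over all 207 features. The fitted change was below 0 in all 5, which include the members, as in 100 of 207 features (48.3%). Their median of -2.01 was the value of MIR18A itself and does not describe the paralogs. The median over all features was 0.03. MIR25 had a fitted change of -0.50 ± 0.52 and MIR93 one of -0.55 ± 0.51 (SE, limma adjusted p = 0.728 for each). Over the 7 arrays in order of time MIR25 had intensities of 416, 464, 1003, 531, 306, 305 and 91.3 units above the dimmest spot. MIR93, which has the seed of miR-20a, had 426, 395, 852, 407, 301, 210 and 87.3. In order of probe signal, which is not an order of abundance, both stood below MIR19A on days 0 to 6 and above it on days 8 to 22. On day 22 MIR25 and MIR93 were close to the highest foreign-tissue marker, at 87 units, and on day 0 both were dimmer than every member. How far this limited their fall, and so the differences from the members, was not tested.

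Whether the members fell more than these paralogs depended on the normalization. After quantile normalization the fitted change of member minus paralog was -1.51, -2.51 and -1.62 for MIR18A, MIR19A and MIR20A against MIR25, and -1.47, -2.47 and -1.58 against MIR93. None of the 6 passed (adjusted p = 0.119 to 0.122 by exact permutation, adjusted over 9 pairs). Before adjustment, exact permutation p was 0.0165 and 0.0282 for MIR19A against MIR25 and MIR93, 0.0496 for MIR18A against MIR25, and above the threshold for the other 3. Without day 22 the differences for MIR18A, MIR19A and MIR20A, scaled to 7 steps, were -0.80, -3.51 and -0.86 against MIR25 and -0.53, -3.24 and -0.59 against MIR93. Without normalization, or with median centring or 75th percentile scaling, which leave differences within an array as they are, all 6 passed (adjusted p = 0.0179 to 0.0396 by exact permutation). The differences were then -1.61, -2.59 and -3.04 against MIR25 and -1.57, -2.55 and -3.0 against MIR93. The other measured seed relatives of the cluster, MIR32 and MIR367, had fitted changes of 0.25 and -0.08 and mean log2 levels of 6.59 and 6.41, within the foreign-tissue marker means of 6.37 to 7.11. MIR367 is itself 1 of those markers.

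**Figure D4:**
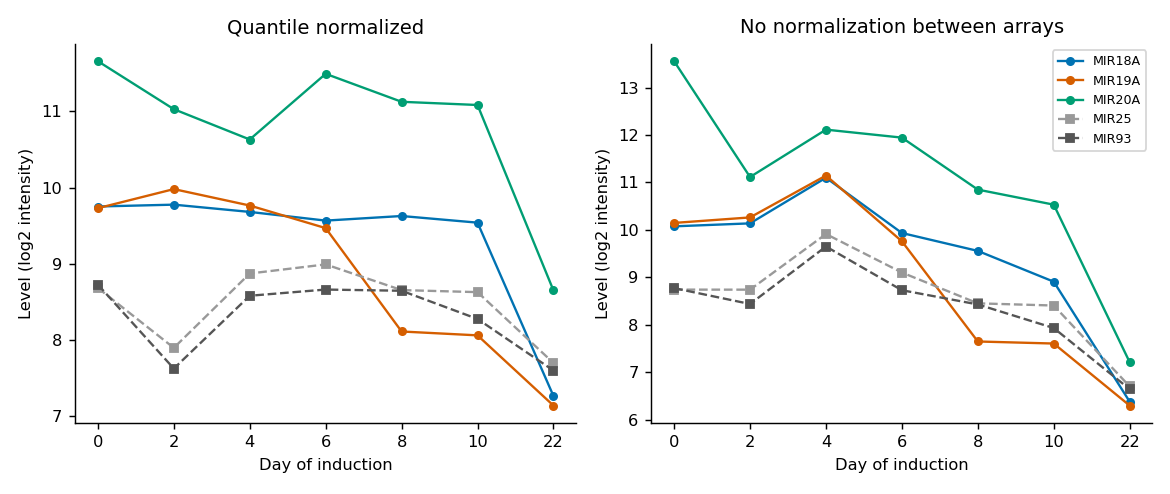
Log2 level of MIR18A, MIR19A and MIR20A (solid) and of the paralogs MIR25 and MIR93 (dashed) against day of induction, quantile normalized on the left and without normalization between arrays on the right. The separation of MIR19A from MIR18A on days 8 and 10 appears in both panels, as does the loss of MIR18A and MIR20A by day 22.

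MicroRNAs that MYC is known to repress, such as the let-7 family, MIR15A, MIR26B and MIR29A, form a counterpart to the cluster, which MYC activates. Of 35 genes on that list 13 were measured by name, and 0 passed in either direction in the limma trend test, beside 1 of all 207 features lower (0.483%) and 0 higher. At an unadjusted limma p under 0.05, 1 of the 13 was lower, MIR15A, beside 12 of 207 (5.80%), and 0 were higher, beside 10 (4.83%). After quantile normalization 8 had positive and 5 negative fitted changes, with a median of 0.04 against 0.03 over all features. The largest were MIR29A, which targets collagen genes, at 1.77 ± 0.84, MIRLET7I at 1.55 ± 0.82, MIR26B at 1.27 ± 0.76 and MIR15A, a repressor of BCL2, at -1.27 ± 0.48 (SE). Without normalization 12 of the 13 fitted changes were negative, with a median of -1.29, and all 3 cluster members remained more negative, at -3.64 for MIR18A, -4.63 for MIR19A and -5.08 for MIR20A. On that scale limma called all 3 members lower (adjusted p = 0.0379, 0.0138 and 0.0138), among 9 features called lower (4.35%) and 0 higher. The members were also brighter, with mean quantile-normalized log2 levels of 8.9 to 10.8 against 6.99 to 8.77 for the 13 genes. Dimmer features have less room to fall on an array as dim as day 22. The part of brightness in this comparison was not tested.

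**Figure D5:**
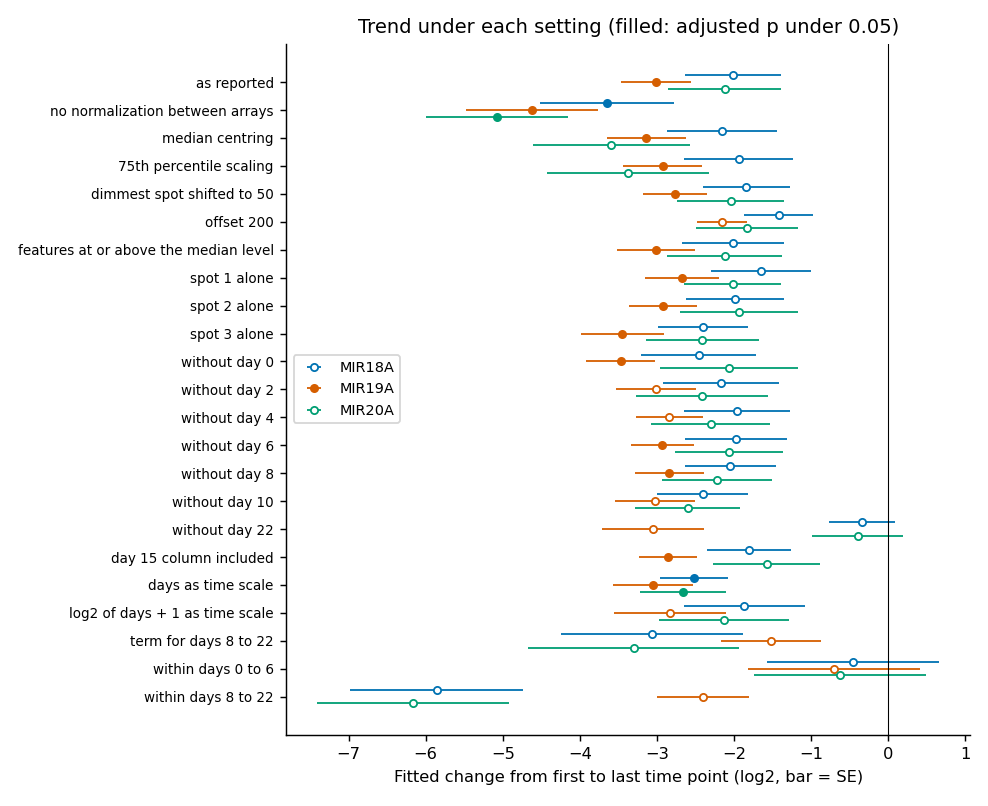
Fitted log2 change from first to last time point for MIR18A, MIR19A and MIR20A (bars are SE) under the reported setting and each alternative, with filled symbols where the limma adjusted p was under 0.05. Slopes over time point order are scaled to 7 steps, also where arrays are left out. All symbols lie below 0, and MIR18A and MIR20A move close to 0 without day 22 while MIR19A does not.

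Likeness of profile was described by Pearson's r of the quantile-normalized log2 level over 7 arrays, which all share day 22 as the most distant array. On this scale MIR18A and MIR20A had r = 0.939, and each was among the 5 features most like the other. MIR19A had r of 0.745 with MIR18A and 0.671 with MIR20A. It came in position 14 of MIR18A's order of likeness, and MIR20A in position 22 of MIR19A's. These placings changed with the scale. Without normalization MIR18A had r of 0.892 with MIR20A and 0.894 with MIR19A, in positions 25 and 24 of its order. With median centring MIR20A was in position 11 of that order (r = 0.866), and with 75th percentile scaling in position 7 (r = 0.873). Under the last of these, MIR20A and MIR18A were the fourth and the fifth most like MIR19A (r = 0.719 and 0.695). Of the named features MIR15A was most like MIR19A (r = 0.830), and MIR21, a microRNA abundant in many tumours, was the fifth most like MIR20A (r = 0.882). MIR25 and MIR93 had r of 0.663 and 0.598 with MIR18A, 0.392 and 0.322 with MIR19A and 0.706 and 0.679 with MIR20A. Without normalization MIR93 became the named feature most like MIR18A (r = 0.977), ahead of both other members.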

How the data were processed

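MicroRNA was measured in K562 cells with 1-colour Cy3 arrays, per the labels. The deposited values are linear intensity from which each array's mean had been subtracted, as the values show (every column averages 0). Scanner, image software, background correction and scaling: not given in the sources used here. Zero and scale between arrays are thus unknown. Of the values of an array, 67.1% to 87.8% lie at or below its mean.

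Intensities were corrected with normexp (limma 3.58.1, R 4.3.3, offset 50), put on a log2 scale, quantile normalized, and averaged over 3 spots. The offset shrinks log2 changes of dim features. Limma (lmFit, then eBayes) fitted a line over time point order (day 22 is 7 steps from day 0) and the difference of days 8 to 22 from days 0 to 6. Fitted changes over this order are slopes scaled to 7 steps, also where arrays were left out. They can then exceed the change observed. Benjamini-Hochberg adjustment covered all 207 features, with a threshold of 0.05. Slopes of differences and ranks were tested by exact permutation. Rank tests were planned with adjustment over the 3 members and are adjusted over 207 features instead. The fit was tested on simulated data. Members, lists and tests were chosen with earlier results of these data known.

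Genes are named from the platform annotation (67 of 207 features have a symbol, 140 none). The text names the members, their paralogs and seed relatives, up to 4 MYC-repressed genes with the largest fitted change, and the named features among the 5 most like each member. Sequences are from RefSeq (GRCh38.p14), where 65 of the 67 symbols had a mature sequence. Alternatives covered normalization, background, offset, filter, single spots, time scale and arrays left out. Figures were drawn with matplotlib 3.10.9.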

Additional observations from a re-analysis of the deposited data

How the results depend on the processing

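No paired analysis was possible because each time point has 1 array. In all 22 alternatives of the trend the fitted changes of the 3 members stayed negative. The cause of the following changes was not tested. Without normalization the trend was -3.64 for MIR18A and -5.08 for MIR20A, both called by limma, with 9 features lower, and late minus early was -2.03 and -2.65, both called, with 62 features lower. In the trend, scaling to the 75th percentile gave 2 features lower, as did median centring. In all 3 settings member minus paralog passed by exact permutation (-1.61, -2.59 and -3.04 against MIR25, -1.57, -2.55 and -3.0 against MIR93), and MIR19A minus MIR20A turned to 0.45. These settings leave differences within an array as they are, so for differences they are the same test. With offset 200 the MIR19A trend was -2.16 (limma adjusted p = 0.0619) and 0 features were lower. On the scale of days it was -2.52 for MIR18A and -2.66 for MIR20A, both called, with 6 features lower and 4 higher. On log2 of days plus 1 MIR19A was at -2.84 (adjusted p = 0.439), with the term for days 8 to 22 at -1.52, within days 0 to 6 at -0.70 and within days 8 to 22 at -2.40, none called by limma and each with 0 features lower. The values within days 0 to 6 and within days 8 to 22 are slopes scaled to 7 steps. With the day 15 column included the trend had 2 features higher, MIR18A minus MIR20A was -0.23, and the rank trend of MIR19A was 74.4 (exact permutation, adjusted p = 0.0205). The day 15 column equals the mean of other arrays and so adds no measurement of its own. The tests with it count it as a further array, which adds orderings, so no conclusion is drawn from their p-values or calls. With spot 2 alone MIR18A minus MIR20A was -0.051. Without both day 0 and day 22, late minus early was 0.065 for MIR20A, with 5 features lower and 4 higher. 

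Leaving out 1 array at a time, the MIR19A trend, always scaled to 7 steps, ran from -3.47 to -2.84, and its late minus early difference from -2.13 to -1.77. The features called ran from 0 to 2 on each side of the trend, and from 0 to 2 lower and 0 to 3 higher in late minus early. MIR18A minus MIR20A ran from -0.40, without day 0, to 0.34, and MIR20A minus MIR25 from -2.0 to -0.86, called without day 4 at -1.88 (exact permutation, adjusted p = 0.0375). The rank trend ran from 3.20 to 80.0 places for MIR18A. Precision is limited by 7 single arrays and, on day 22, by signals of MIR18A and MIR19A within the range of the foreign-tissue markers. On that day MIR25 and MIR93 were close to the top of that range.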

Other observations

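Several of the features most like the members carry no name in the tables used here. The feature starting at row 265, in the table between MIR19A at row 262 and MIR20A at row 268, was the most like MIR19A (r = 0.920 over 7 arrays). Its intensities above the dimmest spot were 2839 ± 1374, 4241 ± 246, 5328 ± 64.4 and 2858 ± 129 units for days 0, 2, 4 and 6. For days 8, 10 and 22 they were 835 ± 134, 754.7 ± 88.1 and 138 ± 11.1 units (SD, n = 3 spots). Days 8, 10 and 22 thus all lay below the earlier days, as in 136 of 207 features (65.7%) on the log2 scale without normalization. Its signal had also fallen between days 4 and 6. Its fitted trend was -2.37 ± 0.67 (SE, limma adjusted p = 0.277 after Benjamini-Hochberg).

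The features starting at rows 181 and 178, directly before MIR18A at row 184, were the most like MIR18A (r = 0.971) and the most like MIR20A (r = 0.980). For days 6, 8, 10 and 22 the former measured 2434 ± 171, 1481 ± 60.5, 886 ± 77.0 and 154 ± 20.5 units. The latter measured 1079 ± 91.6, 691 ± 27.2, 449 ± 5.13 and 91.3 ± 11.9 (SD, n = 3 spots). Both kept rank 11 or better up to day 10, apart from rank 12 of the latter on day 2, and ranked 14 and 50 on day 22. Which microRNA genes these 3 features measure was not determined here.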
